A study of Homo sapiens with 8 samples.

Results

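Reh cells, a B-cell precursor leukaemia line, were profiled for 38 genes that make cholesterol and fatty acids, control that synthesis or move sterols. The genes were picked by name, with earlier results of these data known. Shares of members set beside all probe sets or genes are therefore not those of a list chosen blind to the data. The list held 8 genes of the mevalonate and squalene steps and 9 from lanosterol to cholesterol. A further 5 were of the SREBP switch, 10 of acetyl-CoA and fatty acid metabolism, and 6 of sterol transport, efflux and uptake control. Each was read on 1 probe set, the one with the highest mean over the 8 arrays among those annotated with that symbol alone. Of the 38 genes, 35 had such a probe set, and all 35 reached log2 5 on at least 2 arrays, among 11449 genes on 24481 probe sets tested. CYP51A1 and FADS1 appeared only on probe sets shared by several symbols, and those 2 genes and FDFT1 were not analysed here.

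Cholesterol is built from acetyl-CoA through mevalonate, isoprenoid units, squalene and lanosterol. The transcription factors SREBP-1 and SREBP-2 are made as membrane proteins of the endoplasmic reticulum, escorted by SCAP to the Golgi when membrane sterol is low and held back by the INSIG proteins when it is high. SREBP-2 is known mainly for genes of cholesterol synthesis and SREBP-1 for genes of fatty acid synthesis, whereas oxysterol-activated LXR receptors drive efflux genes such as ABCA1 and ABCG1 and the ubiquitin ligase gene MYLIP.

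Total RNA came from 4 transfections of Reh cells, with 2 biological replicates each: control shRNA (also titled mock), shRNA against CBFA2T3, which encodes a transcriptional corepressor, IKKβ(EE), a constitutively active form of the kinase that switches on NF-κB, and the CBFA2T3 shRNA together with IKKβ(EE), called both here. Per the labels knockdown and expression were transient, and whether cells with IKKβ(EE) alone also received a control shRNA is not stated. The malignancy is listed as non-Hodgkin lymphoma, while the design text derives the line from acute lymphoblastic leukemia. Nothing states that replicates came from separate cultures on separate days, so p-values measure the spread between these arrays, and their number limits the precision.

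All values are on the log2 scale, as the authors' RMA summaries of probe intensity. RMA forces the arrays to one distribution, so changes are relative to the rest of the transcripts. CBFA2T3 measured 9.22 and 9.29 in control, 8.40 and 8.11 with its shRNA, 8.91 and 8.89 with IKKβ(EE), and 8.23 and 7.83 with both. The averaged change was -0.93 ± 0.12 (SE; adjusted p = 0.0102). Of 3 IKBKB probe sets, 1 lay between 3.60 and 4.44 on the 4 arrays without IKKβ(EE) and between 10.39 and 11.97 on the 4 with it, while the other two gave 0.32 and 0.26 for IKKβ(EE) against control and did not pass. Of 9 measured B-precursor markers 8 averaged log2 5 or more (VPREB1 was at 3.22), against 0 of 5 T cell, 0 of 5 myeloid, 1 of 2 erythroid (HBB, 5.35) and 1 of 4 fibroblast markers (COL1A1, 7.38). Bulk RNA cannot tell fewer cells of a kind from less RNA per cell.

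As background to the members whose values the results turn on, the promoters of LSS, ABCA1 and STARD4, together with that of SREBF2, are shown from 250 bases before to 50 bases after the annotated start (RefSeq, GRCh38.p14, each 5′ to 3′ in the direction of its gene). Capitals mark matches to short motifs, searched on either strand. The first motif is the sterol regulatory element to which SREBP proteins bind, searched as TCACNCCAC. The next is the E-box that proteins of the helix-loop-helix family bind, searched as CACGTG. The others are the box named for its letters, CCAAT, to which the factor NF-Y is known to bind in many promoters of this pathway, and the GC box of Sp1 and related factors, searched as GGGCGG. No matches of different motifs overlapped in these 4 windows. LSS lies at chr21:46228725-46229024 and ABCA1 at chr9:104928106-104928405, both on the minus strand. STARD4 lies at chr5:111512486-111512785 on the minus strand and SREBF2 at chr22:41832855-41833154 on the plus strand.
LSS: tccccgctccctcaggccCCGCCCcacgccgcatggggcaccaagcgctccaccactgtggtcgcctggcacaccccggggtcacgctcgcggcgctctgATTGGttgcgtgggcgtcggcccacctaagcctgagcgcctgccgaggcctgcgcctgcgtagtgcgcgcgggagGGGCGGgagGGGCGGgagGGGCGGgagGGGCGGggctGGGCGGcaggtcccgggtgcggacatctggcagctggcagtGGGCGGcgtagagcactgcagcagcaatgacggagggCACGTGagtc
ABCA1: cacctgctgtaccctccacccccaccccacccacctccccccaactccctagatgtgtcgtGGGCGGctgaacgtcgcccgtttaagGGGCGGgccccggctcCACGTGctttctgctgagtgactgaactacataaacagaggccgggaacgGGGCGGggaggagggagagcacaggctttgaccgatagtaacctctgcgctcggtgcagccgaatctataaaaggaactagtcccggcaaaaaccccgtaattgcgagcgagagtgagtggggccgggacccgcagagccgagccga
STARD4: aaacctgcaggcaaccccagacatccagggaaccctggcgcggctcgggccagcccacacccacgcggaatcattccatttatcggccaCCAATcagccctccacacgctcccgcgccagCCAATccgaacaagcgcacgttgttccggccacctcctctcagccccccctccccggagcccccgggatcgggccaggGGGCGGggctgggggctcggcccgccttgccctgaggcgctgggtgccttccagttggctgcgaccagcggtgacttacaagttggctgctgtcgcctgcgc
SREBF2: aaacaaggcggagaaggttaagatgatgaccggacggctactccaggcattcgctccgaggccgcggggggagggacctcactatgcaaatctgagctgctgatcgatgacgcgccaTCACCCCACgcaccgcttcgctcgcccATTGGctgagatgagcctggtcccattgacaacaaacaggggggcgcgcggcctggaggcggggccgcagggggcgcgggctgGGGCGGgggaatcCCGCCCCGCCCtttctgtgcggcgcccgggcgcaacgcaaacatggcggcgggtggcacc

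Of the 38 genes, 33 had a promoter entry. The sterol regulatory element matched in 1 of the 33, SREBF2, where its first base lies 133 bases before the start (3.03%, against 1.39% of all 27305 genes with an entry and 1.13% of 35116 promoters). The E-box matched in 5 of 33 (15.2%, against 8.77% of all genes and 7.26% of promoters), and it is present in LSS and ABCA1. The CCAAT box matched in 23 of 33 (69.7%, against 39.7% of genes and 34.6% of promoters), as in LSS, STARD4 and SREBF2. The GC box matched in 32 of 33 (97.0%, against 48.3% and 45.0%). These are counts of letters in a window and show neither binding nor a cause.

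**Figure D1:**
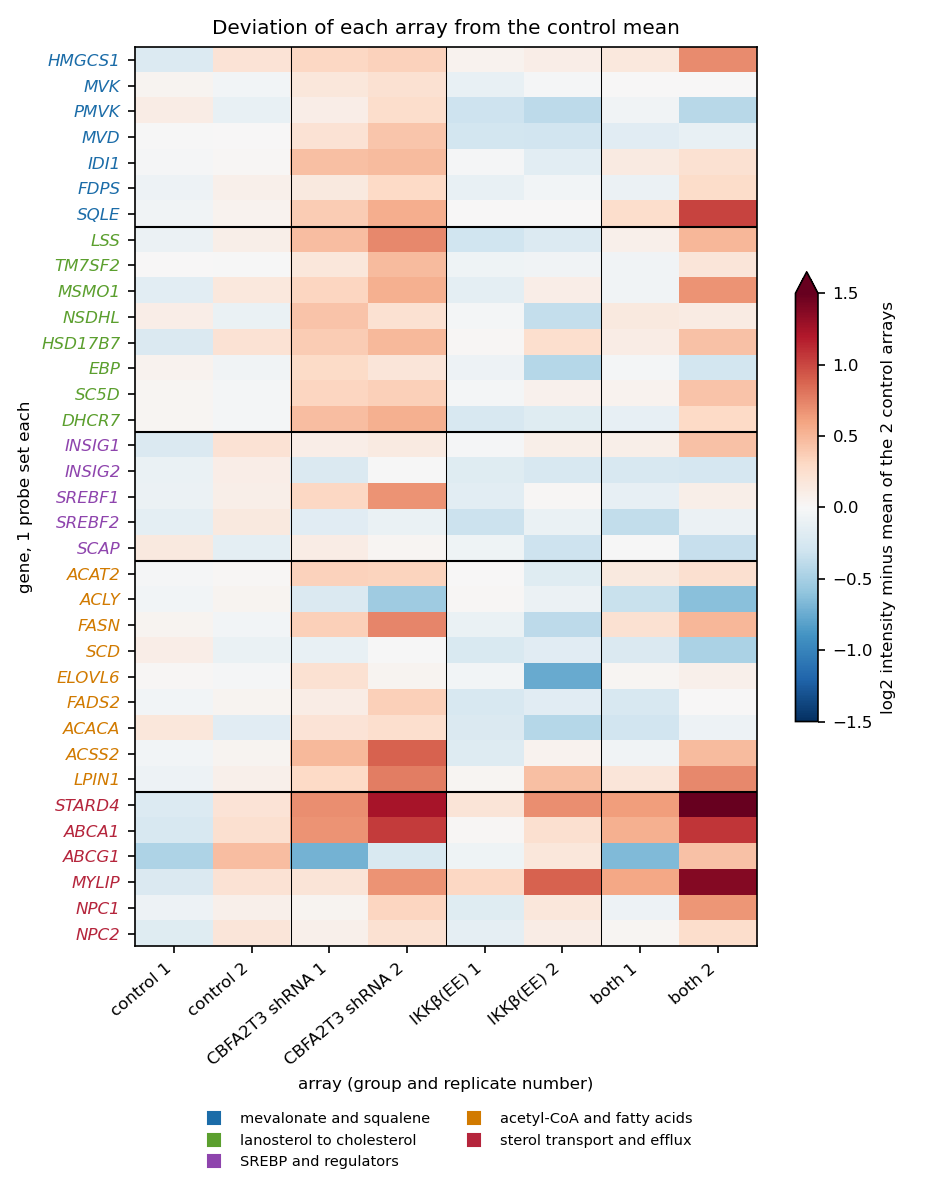
Heat map of the 35 measured genes (rows, coloured by role) on the 8 arrays (columns, group and replicate number). Colour gives the log2 intensity minus the mean of the 2 control arrays, with values over 1.5 shown as 1.5. Most rows are red in both CBFA2T3 shRNA arrays and on the second array with both constructs, while the median gene sat at -0.08 and -0.05 with IKKβ(EE) alone.

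The first question was what CBFA2T3 knockdown did to these genes. In most of them the signal was higher with the shRNA, both in cells without IKKβ(EE) and in cells with it. Lanosterol synthase, fatty acid synthase, isopentenyl isomerase and the efflux pump ABCA1 rose by 1.29-fold to 1.70-fold when the knockdown effect was averaged over both backgrounds. Within either background alone no member passed the test, so the calls rest on the average of 4 arrays with the shRNA against 4 without.

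Averaged over the presence and absence of IKKβ(EE), 30 of the 35 genes were higher with the shRNA, with a median change of 0.27 on the log2 scale. Over all tested probe sets 51% were higher. limma called 4 of them higher (11.4%) and 0 lower at an adjusted p under 0.05, where it called 3.46% of all tested probe sets higher and 4.13% lower. At an unadjusted p under 0.05 there were 15 members. The share of all probe sets at that cut was not counted, for this or the other comparisons, so the unadjusted counts have no background beside them. In 7 genes all 4 shRNA arrays lay above the other 4 and in 1 below, where 7.23% and 8.05% of all probe sets did so. With the replicate number as a block, 15 members passed as higher and 1 as lower, where 11.2% of all probe sets passed as higher and 10.7% as lower. The 4 calls depended on single arrays. LSS, IDI1, ABCA1 and FASN each lost the call in most of the 8 fits that left out 1 array. Their changes stayed between 0.33 and 0.90, and the median change of the members stayed between 0.19 and 0.33. Where any probe set of a gene counted, 7 of the 35 were called higher and 0 lower, against 5.22% and 5.83% of the 11449 genes counted in the same way. Of 18 members with over 1 tested probe set, 6 had probe sets of different signs: ACACA, ACLY, EBP, FADS2, MYLIP and SREBF2.

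**Figure D2:**
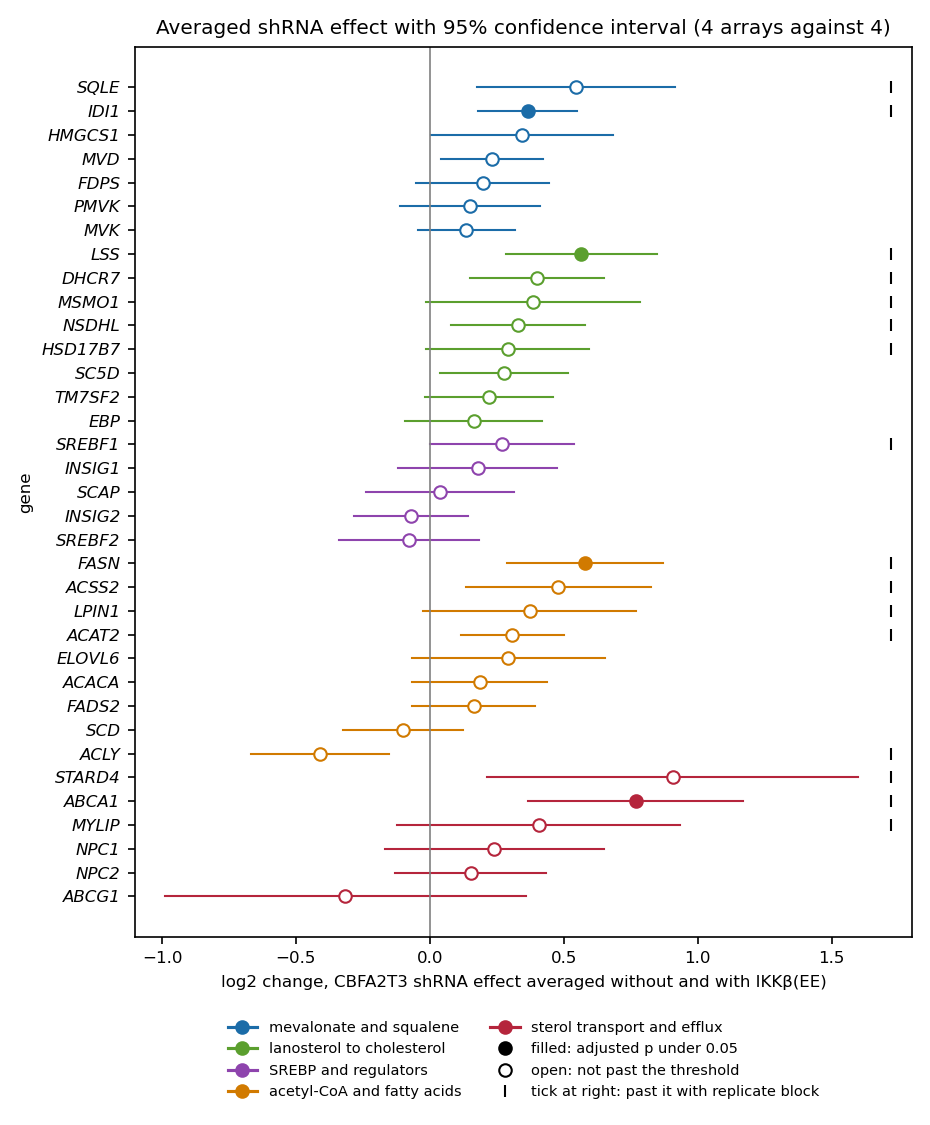
Averaged CBFA2T3 shRNA effect for each of the 35 genes on the log2 scale (x axis; points are estimates, lines 95% confidence intervals, 4 arrays with the shRNA against 4 without), grouped and coloured by role. Filled points passed an adjusted p of 0.05 without the block (4 genes), and the ticks at the right mark the 16 genes that passed with the replicate block. The interval of ACLY lies wholly below 0.

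The mevalonate and squalene genes were all on the higher side with the shRNA, 7 of 7 with a median of 0.23, and 1 was called. IDI1, the isomerase that makes dimethylallyl diphosphate, measured 11.64 and 11.66 in control, 12.11 and 12.12 with the shRNA, 11.63 and 11.49 with IKKβ(EE), and 11.78 and 11.87 with both. All 4 arrays with the shRNA lay above all 4 without it, and the arrays with IKKβ(EE) lay below their counterparts without it. Averaged over backgrounds, the change was 0.36 ± 0.08 (SE, 4 arrays against 4; adjusted p = 0.0374, and 0.0144 with the block). The IDI1 probe set is of the kind whose probes can bind other transcripts. Its 3 other tested probe sets gave 0.30 (adjusted p = 0.0643, and 0.0245 with the block), 0.10 (0.507) and 0.09 (0.557), so 1 of 4 passed without the block.

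SQLE, squalene epoxidase, a rate-limiting enzyme of the sterol branch, measured 10.51 and 10.60 in control and 10.94 and 11.10 with the shRNA. With IKKβ(EE) it measured 10.56 on both arrays, and with both constructs 10.81 and 11.57. The groups with and without the shRNA did not overlap, although the second array with both constructs stood 0.75 above the first. The change averaged to 0.55 ± 0.16 (adjusted p = 0.0802, and 0.0237 with the block). The other SQLE probe sets gave 0.61 (adjusted p = 0.0402), 0.62 (0.077, and 0.0439 with the block) and 0.52 (0.0662, and 0.0318 with the block). Only the first of these passed without the block.

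The other 5 genes of these steps gave averaged changes from 0.14 for mevalonate kinase (MVK) to 0.34 for HMG-CoA synthase (HMGCS1), none past the threshold. Their probe sets differed in size. For HMGCS1, which makes the HMG-CoA that enters the pathway, the other probe set gave 0.97 (adjusted p = 0.0494) against 0.34 (adjusted p = 0.188) on the one with the higher mean. For MVK the corresponding values were 0.42 (adjusted p = 0.0401) and 0.14 (adjusted p = 0.324).

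In the steps from lanosterol to cholesterol 8 of 8 measured genes were on the higher side in both backgrounds, with an averaged median of 0.31. Of these 1 was called (5 with the block), and another probe set of EBP gave an averaged -0.04. LSS, lanosterol synthase, whose promoter is printed above, closes squalene epoxide into the first sterol. It measured 9.67 and 9.85 in control, 10.23 and 10.49 with the shRNA, 9.47 and 9.55 with IKKβ(EE), and 9.84 and 10.25 with both. Each shRNA array lay above both arrays of its own background, but the lowest array with both constructs lay just under the highest control array. Over both backgrounds the estimate was 0.57 ± 0.12 (1.48-fold; adjusted p = 0.0357, and 0.00503 with the block). The second LSS probe set gave 0.58 (adjusted p = 0.0546, and 0.0266 with the block). LSS also passed with the block within each background, at 0.59 ± 0.17 without IKKβ(EE) (adjusted p = 0.156, and 0.0261 with the block) and 0.54 ± 0.17 with it (0.211, and 0.0455 with the block).

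DHCR7, the last reductase of the pathway, measured 9.54 and 9.49 in control, 9.99 and 10.05 with the shRNA, 9.27 and 9.34 with IKKβ(EE), and 9.40 and 9.81 with both. Its shRNA arrays stood clear of control, while the arrays with both constructs straddled the control level. limma gave an averaged change of 0.40 ± 0.11 (adjusted p = 0.065, and 0.0232 with the block). NSDHL, a decarboxylating sterol dehydrogenase, was 0.33 ± 0.11 (0.106, and 0.0243 with the block) with no overlap between the 4 arrays with and the 4 without the shRNA. The methyl oxidase MSMO1 (0.38) and the ketoreductase HSD17B7 (0.29) also passed with the block alone, at 0.0355 and 0.0396. HSD17B7 was read on a probe set open to cross-hybridisation and has a near-identical pseudogene copy, so its value is uncertain.

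The SREBP switch had the smallest median of the 5 roles. Of its 5 genes 3 were on the higher side, with a median of 0.04 and 0 called by limma (1 at an unadjusted p under 0.05, 1 with the block). SREBF1, which encodes SREBP-1, measured 9.41 and 9.59 in control, 9.81 and 10.17 with the shRNA, 9.35 and 9.52 with IKKβ(EE), and 9.38 and 9.59 with both. The second SREBF1 probe set, with a mean of 5.2, gave 0.16 without IKKβ(EE), 0.13 with it and a difference of -0.04 between the backgrounds. On the probe set read here, only the arrays with the shRNA alone stood apart from the rest. The change without IKKβ(EE) was 0.49 ± 0.16 (adjusted p = 0.203, and 0.0325 with the block) and with it 0.05 ± 0.16 (adjusted p = 0.922), but the difference of -0.44 ± 0.23 between the backgrounds missed the threshold (adjusted p = 1, and 0.748 with the block).

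SREBF2, which encodes SREBP-2 and whose promoter holds the sterol element, measured 8.0 and 8.30 in control, 7.98 and 8.05 with the shRNA, 7.83 and 8.05 with IKKβ(EE), and 7.78 and 8.06 with both. The groups overlapped throughout, and the averaged change was -0.08 ± 0.11 (adjusted p = 0.719). The escort SCAP gave 0.04 ± 0.12 and the anchor INSIG2 -0.07 ± 0.09. INSIG1, itself a known SREBP target, gave 0.18 ± 0.13 (adjusted p = 0.425). Its other probe sets gave 0.31 (adjusted p = 0.196) and 0.52 (0.0868, and 0.02 with the block).

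Among the acetyl-CoA and fatty acid genes 7 of 9 were on the higher side, with a median of 0.29, 1 called higher and 0 lower. FASN, fatty acid synthase, measured 8.11 and 8.03 in control, 8.43 and 8.81 with the shRNA, 7.97 and 7.68 with IKKβ(EE), and 8.30 and 8.57 with both. All 4 shRNA arrays lay above the other 4. The averaged change was 0.58 ± 0.12 (1.49-fold; adjusted p = 0.0369, and 0.0165 with the block).

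ACSS2, which makes acetyl-CoA from acetate in the cytosol, measured 6.65 and 6.73 in control, 7.17 and 7.58 with the shRNA, 6.50 and 6.74 with IKKβ(EE), and 6.64 and 7.17 with both. Both arrays with the shRNA alone were above control, while the arrays with both constructs overlapped those with IKKβ(EE). Averaged over backgrounds, the change was 0.48 ± 0.15 (adjusted p = 0.0934, and 0.012 with the block). ACAT2, the cytosolic thiolase that joins 2 acetyl-CoA molecules, was 0.31 ± 0.08 (0.064, and 0.0282 with the block), and the phosphatidate phosphatase LPIN1 was 0.37 ± 0.17 (0.223, and 0.0229 with the block).

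ACLY, ATP citrate lyase, the main source of cytosolic acetyl-CoA from glucose, went the other way. It measured 11.79 and 11.88 in control, 11.62 and 11.31 with the shRNA, 11.86 and 11.75 with IKKβ(EE), and 11.50 and 11.21 with both, so all 4 shRNA arrays were below the other 4. The change averaged to -0.41 ± 0.11 (adjusted p = 0.0648, and 0.0194 with the block). Its other probe sets gave -0.14 and 0.04, so the 3 probe sets differed in direction. The desaturase SCD gave -0.10 ± 0.10, close to the floor at log2 5 on every array.

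Sterol transport and efflux genes held the 2 largest values, those of ABCA1 and STARD4. ABCA1, which pumps cholesterol to apolipoprotein acceptors, measured 6.48 and 6.97 in control, 7.39 and 7.78 with the shRNA, 6.74 and 6.96 with IKKβ(EE), and 7.26 and 7.79 with both. All 4 shRNA arrays were above the other 4, and replicate 2 was above replicate 1 in every group. Over both backgrounds the estimate was 0.77 ± 0.17 (1.70-fold; adjusted p = 0.0405, and 0.00217 with the block), and the second tested probe set gave 0.96 (adjusted p = 0.0438).

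STARD4, a soluble carrier that moves cholesterol between membranes and is a known SREBP target, measured 7.99 and 8.39 in control, 8.88 and 9.43 with the shRNA, 8.39 and 8.88 with IKKβ(EE), and 8.81 and 10.15 with both. The shRNA arrays stood above control, but the lower array with both constructs lay under the higher array with IKKβ(EE) alone. limma gave an averaged change of the largest of the 35 genes, 0.91 ± 0.30, and so was its error (adjusted p = 0.107, and 0.00867 with the block). The STARD4 change lay between 0.57 and 1.24 as single arrays were left out.

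MYLIP, the LXR-driven ligase that limits lipoprotein uptake, gave 0.41 ± 0.23 (adjusted p = 0.307, and 0.0162 with the block), but its 5 other tested probe sets ran from -0.05 to 0.39 and 1 of them passed with the block (0.0366). The lysosomal cholesterol exporters NPC1 and NPC2 gave 0.24 ± 0.18 and 0.15 ± 0.12. ABCG1, the other LXR-driven efflux pump, measured 5.08 and 6.01 in control, 4.84 and 5.32 with the shRNA, 5.48 and 5.72 with IKKβ(EE), and 4.89 and 5.99 with both. These arrays overlapped, lay near the floor and gave -0.32 ± 0.29 (adjusted p = 0.549), a value on the side opposite to ABCA1.

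**Figure D3:**
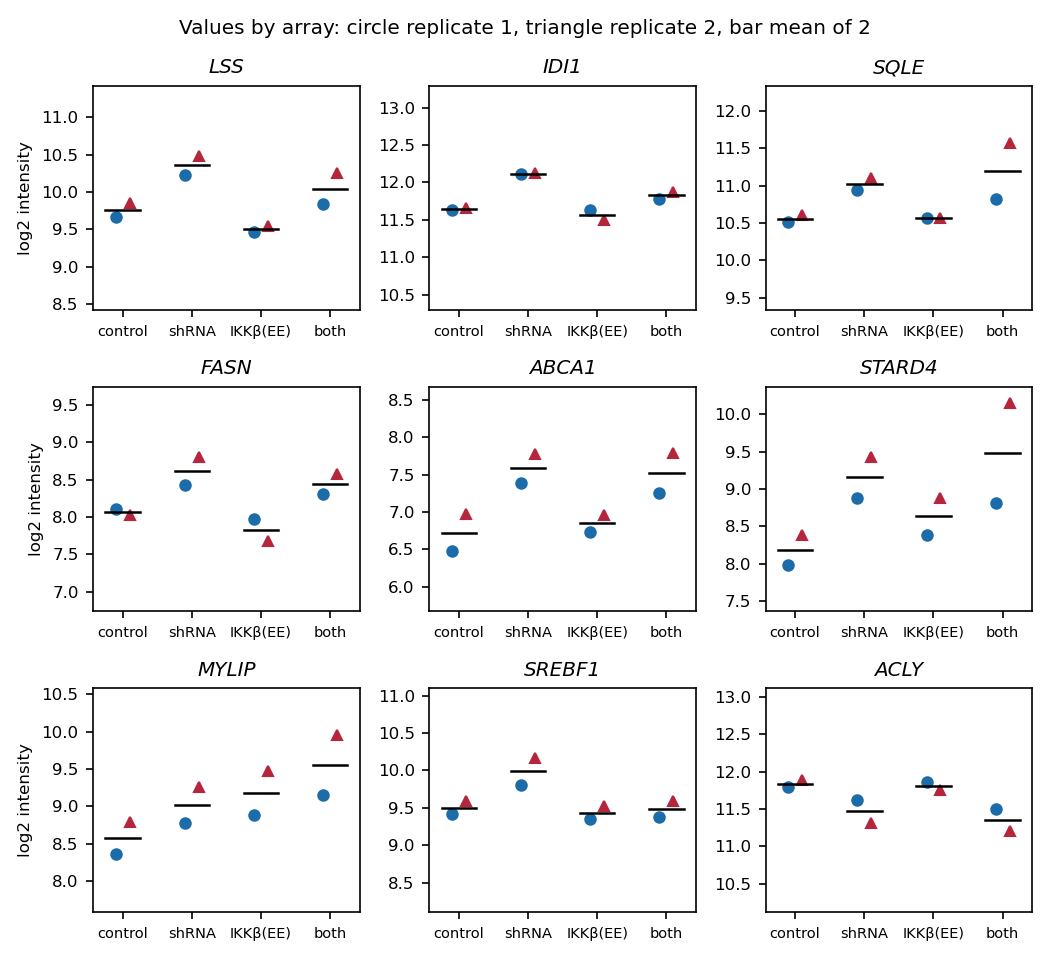
Log2 intensity (y axis) of 9 genes on each array in the 4 groups (x axis); circles are replicate 1, triangles replicate 2, bars the mean of 2, and every panel spans the same range of log2 values. SQLE, STARD4 and MYLIP show the high second array with both constructs, and ACLY is the panel in which the 4 shRNA arrays lie lowest.

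The knockdown effect was then set side by side in the 2 backgrounds, which share no array. Whether cells with IKKβ(EE) alone received a control shRNA is not stated, so the second background may set the shRNA against none. The average and the interaction carry the same limit. Without IKKβ(EE), 30 of 35 genes were higher with the shRNA and the median change was 0.32, against 0.01 over all tested probe sets. In 24 genes both shRNA arrays lay above both control arrays, and in 1 gene, ACLY, below, where 25.9% and 24.0% of all probe sets did so. limma called 0 members (11 at an unadjusted p under 0.05; smallest adjusted p = 0.109, IDI1), where it called 0.69% of all probe sets. With the replicate block 7 were called higher, against 3.98% of probe sets: ABCA1, STARD4, ACSS2, LSS, LPIN1, SREBF1 and IDI1. Their changes ran from 0.46 for IDI1 to 0.97 for STARD4.

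With IKKβ(EE) present, 30 of 35 were again on the higher side, where 49.5% of all probe sets were, and the median was 0.21. In 13 genes the arrays did not overlap and were higher, and in ACLY lower, where 21.5% and 21.7% of all probe sets did so. limma called 0 members (7 at an unadjusted p under 0.05), where it called 0.143% of probe sets, and 2 with the block, LSS and ABCA1, where 2.18% of probe sets passed as higher. Over the fits that left out 1 array the median ran from 0.04, without replicate 2 of both constructs, to 0.32.

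The signs were also read within each replicate number. Subtracting control from shRNA and IKKβ(EE) from both, each with its own number, gave 4 separate differences per gene, with medians of 0.28, 0.33, 0.10 and 0.35. In 26 of 35 genes (74.3%) all 4 were above 0, where this held for 26.4% of 11445 genes tested. In 2 genes, INSIG2 and ACLY, all 4 were below 0, which held for 21.5% of all genes. The signs were mixed for SREBF2, ABCG1, PMVK, SCAP, SCD, INSIG1 and ACACA.

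**Figure D4:**
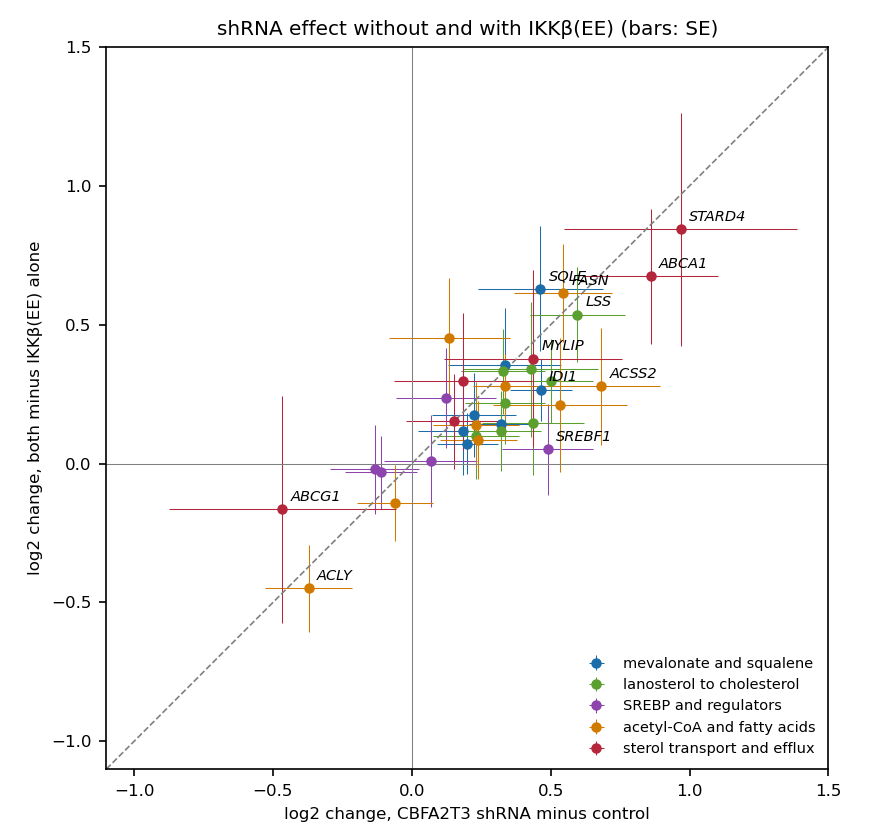
Log2 change with the CBFA2T3 shRNA without IKKβ(EE) (x axis) and with it (y axis) for the 35 genes, coloured by role, with SE bars; the dashed line marks equal change and no array enters both axes. Most genes lie above 0 on both axes, STARD4 and ABCA1 farthest out, and SREBF1 lies close to 0 on the y axis.

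A difference between the 2 backgrounds was not detectable with 2 arrays a group. For the interaction, limma called 0 of the 35 (0 at an unadjusted p under 0.05, 0 with the block), where 0.0123% of all probe sets were called. On the probe sets read here, the estimates ran from -0.44 for SREBF1 to 0.32 for ELOVL6, the elongase of long saturated chains. Their median was -0.08. Other probe sets gave 0.04 and 0.06 for ELOVL6 and -0.04 for SREBF1. The ELOVL6 set read here measured 8.85 and 8.13 on the 2 arrays with IKKβ(EE) alone, the second being its lowest array. The median SE of an interaction was 0.22.

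The next question was what IKKβ(EE) did. Against control, 10 of 35 genes were higher and 25 lower, with a median of -0.07. Over all tested probe sets 44.4% were higher, with a median of -0.03. Here limma called 0 members (1 at an unadjusted p under 0.05, MVD at -0.28 ± 0.12), where it called 0.229% of all probe sets. Added to the shRNA, 7 were higher and 28 lower, with a median of -0.14, where 43.6% of all probe sets were higher, with a median of -0.04. In this comparison limma called 0 members (8 at an unadjusted p under 0.05), where it called 0.862% of all probe sets. All 8 genes from lanosterol to cholesterol and all 9 fatty acid genes were on the lower side in this second comparison. With the block 1 member was called in the first, against 3.39% of probe sets, and 3 in the second, against 5.08%.

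MYLIP gave the highest value in both comparisons. It measured 8.37 and 8.79 in control, 8.77 and 9.26 with the shRNA, 8.89 and 9.47 with IKKβ(EE), and 9.16 and 9.95 with both. On this probe set its level was higher with each construct and highest with both, within each replicate number. Of the 5 other MYLIP probe sets, most did not give that order. Among them, 1 measured 5.86 and 6.44 with IKKβ(EE) and 5.85 and 6.13 with both. In replicate 1, another measured 8.95 with IKKβ(EE) and 8.93 with both, and another 8.06 and 7.996. A further set was lowest with both in that replicate, at 5.01. On the probe set read here, IKKβ(EE) gave 0.60 ± 0.32 without the shRNA (adjusted p = 0.593, and 0.0427 with the block). With the shRNA it gave 0.54 ± 0.32 (0.467, and 0.0479 with the block). The probe sets of MYLIP disagreed: of the 5 others, 1 passed with the block for the first value (0.76, block adjusted p = 0.0342) and 0 for the second, and 1 lay on the lower side in both (-0.16 and -0.39). On the probe sets read here, SREBF1 and the decarboxylase gene MVD passed with the block on the other side, when IKKβ(EE) was added to the shRNA. SREBF1 gave -0.51 ± 0.16 (0.23, and 0.0359 with the block) and MVD -0.47 ± 0.12 (0.148, and 0.0475 with the block). The second SREBF1 probe set gave -0.03 in that comparison. Other probe sets passed with the block where the read set did not. For ELOVL6 a dim set, with a mean of 5.4, gave -0.70 without the shRNA (block adjusted p = 0.0198) and -0.64 with it (0.0233). The ELOVL6 set read here gave -0.40 (0.271) and -0.08 (0.807). Another MVK set gave -0.53 with the shRNA (0.046), against -0.19 (0.278) on the set read.

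Against control, cells with both constructs were higher in 23 of 35 genes and lower in 12, with a median of 0.14. Over all tested probe sets 46.3% were higher, with a median of -0.03. limma called 0 members (6 at an unadjusted p under 0.05; smallest adjusted p = 0.0851, ABCA1), where it called 8.43% of all probe sets. With the block 5 were called higher and 1 lower, against 11.8% and 12% of probe sets. The 5 were STARD4 at 1.29 ± 0.42, MYLIP at 0.98 ± 0.32 (with another probe set of the gene at -0.33), ABCA1 at 0.80 ± 0.24, SQLE at 0.64 ± 0.23 and LPIN1 at 0.45 ± 0.24, and the 1 was ACLY at -0.48 ± 0.16. Over the fits that left out 1 array the median ran from -0.01, without replicate 2 of both constructs, to 0.27. This comparison uses the control arrays that the single-construct comparisons also use.

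The replicates themselves differed in these genes. In a fit with the group and the replicate number, 25 of 35 were higher in replicate 2, with a median of 0.16. Over all tested probe sets 47.7% were higher, with a median of -0.01. limma called 5 higher (14.3%) and 0 lower, where it called 5.2% and 3.7% of all probe sets. All 6 transport genes were higher in replicate 2 in all 4 groups. The called genes were MYLIP at 0.57 ± 0.08 (adjusted p = 0.0183), ABCA1 at 0.41 ± 0.08 (0.0295), ABCG1 at 0.69 ± 0.14 (0.0339), LPIN1 at 0.40 ± 0.08 (0.036) and STARD4 at 0.69 ± 0.15 (0.0378). No floor left 1 called, and trend and robust moderation gave 11, without the share of all probe sets in those fits given here. Fewer members were called whenever 1 array was left out, while the median stayed between 0.12 and 0.19.

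In the group with both constructs, replicate 2 exceeded replicate 1 by 1.33 for STARD4, 1.10 for ABCG1, 0.80 for MYLIP, 0.75 for SQLE, 0.74 for NPC1 and 0.73 for MSMO1, the 6 largest gaps in that group. Relative to the control mean, the median gene sat at -0.05 and 0.05 in control, 0.23 and 0.35 with the shRNA, -0.08 and -0.05 with IKKβ(EE), and -0.01 and 0.27 with both. The first array with both constructs was thus near control and the second near the shRNA arrays. The labels do not say what the replicate number stands for, and its part in these values was not tested beyond the block.

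**Figure D5:**
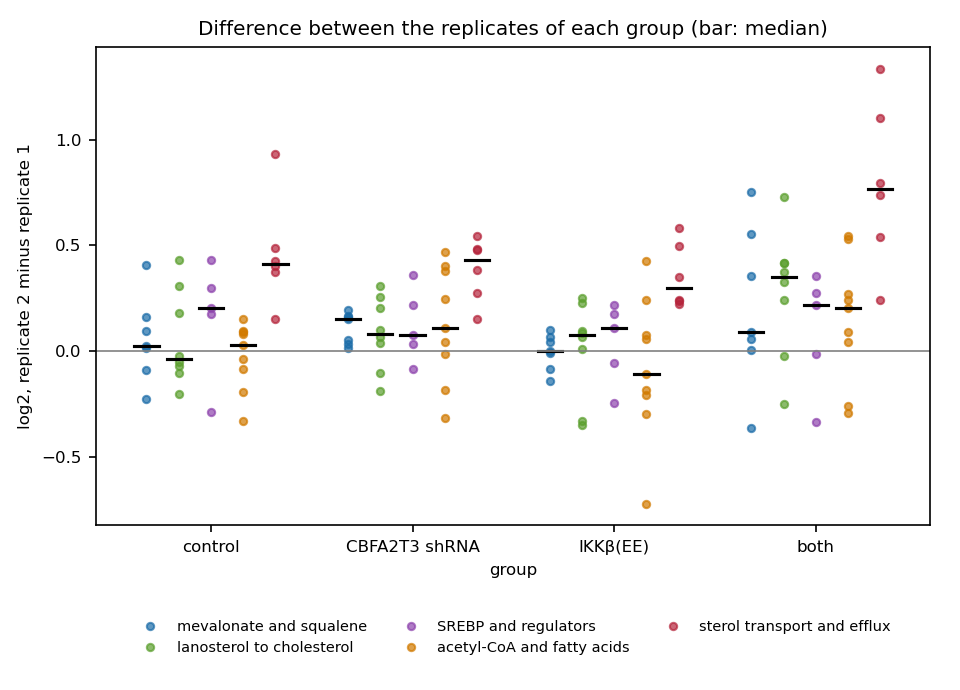
Difference between replicate 2 and replicate 1 on the log2 scale (y axis) in each of the 4 groups (x axis), 1 point per gene, coloured by role, with bars at the median of each role. The 6 transport and efflux genes lie above 0 in every group, and the points reach 1.33 (STARD4) with both constructs.

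A further 46 genes of neighbouring steps, of which 35 were tested, were read in the same fits. Averaged over both backgrounds, 20 of these 35 were on the higher side, with a median of 0.07, and 2 were called higher and 3 lower, where 3.46% and 4.13% of all probe sets were called. With the block 7 were called higher and 4 lower, against 11.2% and 10.7% of probe sets. SOAT1, which esterifies cholesterol for storage, measured 10.03 and 9.94 in control, 9.22 and 8.72 with the shRNA, 9.86 and 9.79 with IKKβ(EE), and 9.07 and 8.996 with both. All 4 shRNA arrays were below the rest, and SOAT1 fell by 0.90 ± 0.12 (adjusted p = 0.012). LIPA, the lysosomal lipase that releases cholesterol from its esters, rose by 0.42 ± 0.09 (adjusted p = 0.0334).

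Of 7 tested genes of SREBP processing, 2 were on the higher side, 0 were called higher and 2 lower. MBTPS1, the protease that makes the first cut in SREBP, fell by 0.57 ± 0.10 (adjusted p = 0.0193). ERLIN1, which takes part in degrading sterol sensors of the endoplasmic reticulum, fell by 0.58 ± 0.14 (adjusted p = 0.0495). Of 7 tested isoprenoid branch genes 0 were called by limma (2 with the block). When the 8 arrays were left out in turn, SOAT1 missed the threshold without control replicate 2 alone (adjusted p = 0.0649) and was called in the other 7 fits. MBTPS1 was called in 2 of the 8 fits (without CBFA2T3 shRNA replicate 1 and without replicate 1 of both constructs), and LIPA and ERLIN1 in 1 (without replicate 1 of both constructs).

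Of 13 tested genes of fatty acid activation and elongation, 1 was called higher, ACSL5, an acyl-CoA synthetase, at 0.66 ± 0.10 (adjusted p = 0.0149). Its relative ACSL1 measured 7.95 and 7.82 in control, 7.73 and 7.35 with the shRNA, 8.95 and 9.62 with IKKβ(EE), and 8.97 and 9.67 with both. All 4 arrays with IKKβ(EE) were above the other 4, and adding IKKβ(EE) to the shRNA raised ACSL1 by 1.78 ± 0.29 (adjusted p = 0.0439), the only call among these 35 genes in that comparison without the block, where 0.862% of all probe sets were called. With the block 4 were called higher, ACSL1, ACSL4, ACSL5 and NUS1, and 1 lower, PCYT2, against 5.08% of probe sets. Against control, IKKβ(EE) alone gave 1.40 ± 0.29 for ACSL1 (adjusted p = 0.156, and 0.0386 with the block). ACSL5 kept its call in 5 of the 8 fits that left out 1 array, missing it without control replicate 2, CBFA2T3 shRNA replicate 2 or IKKβ(EE) replicate 2. ACSL1 kept its call in 3, those without either IKKβ(EE) array or without replicate 1 of both constructs. Both constructs against control gave 4 called higher, ACSL1 (1.44), ACSL5 (1.13), PGGT1B (0.70) and ACSL4 (0.55), and 2 lower, SOAT1 (-0.95) and MBTPS1 (-0.71), where 8.43% of all probe sets were called. With the block this comparison gave 7 higher and 7 lower, against 11.8% and 12% of probe sets.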

How the data were processed

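The authors deposited 1 table of log2 intensities made with RMA, per the submitters' processing notes, with no version named. Base 2 was inferred from the highest value, 14.6. Groups and replicate numbers came from the labels. Of 54675 probe sets, 62 control sets and those below log2 5 on all or all but 1 array were left out, leaving 24481.

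The model in limma 3.58.1 (R 4.3.3, statmod 1.5.0) held a mean for every group and a common spread over the 8 arrays (4 residual and 3.54 prior degrees of freedom). Tests were two-sided with Benjamini-Hochberg adjustment over all 24481 probe sets in each of 8 comparisons, and an adjusted p under 0.05 was a call. Errors after ± are SE of the fit. The median SE was 0.15 for the shRNA change and 0.11 for the averaged one. With 2 arrays against 2, the smallest p of an exact permutation test is 0.333. Only the shRNA comparisons without the block were run on simulated data, which held no replicate effect and planted changes larger than the averaged calls. That run does not cover the block, the interaction or the IKKβ(EE) comparisons.

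Replicate 2 minus replicate 1, compared between groups over the tested probe sets, gave correlations of 0.34 to 0.58 in 6 of 6 pairs of groups, so equal numbers were taken to pair arrays; the pairing comes from the values, not the labels. Block values stand beside results where they change a call.

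The members, lists and tests were chosen with earlier results of these data known. Any member could be named, with values for those called or, in a role without a call, the largest and smallest; of neighbouring lists up to 3 called genes each. Alternatives were other floors, moderation, array weights, cyclic loess, equal medians, the block, only the compared arrays, any probe set, and leaving out each array. Promoter windows came from the RefSeq table (GRCh38.p14).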

Additional observations from a re-analysis of the deposited data

How the results depend on the processing

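On the probe set reported for each gene, no called change turned its direction under the alternatives run. Floors, moderation, the block and the use of only the compared arrays do not alter a probe set's estimated group change. They could therefore not turn its direction. In 6 of the 18 members with over 1 tested probe set, another probe set lay on the opposite side in the averaged effect. These values were -0.12 for ACACA, 0.04 for ACLY, -0.04 for EBP, -0.19 for FADS2, -0.05 for MYLIP and 0.06 for SREBF2. For IKKβ(EE), a MYLIP probe set gave -0.16. Counts of genes on the higher side use the reported probe set alone. Counts of called members moved by over 1.5 times as follows. With the replicate block there were 7 instead of 0 for the shRNA against control, 2 instead of 0 for both against IKKβ(EE), 16 instead of 4 for the averaged effect, 1 instead of 0 for IKKβ(EE), 3 instead of 0 for both against the shRNA, and 6 instead of 0 for both against control. Counting any probe set gave 7 for the averaged effect. For the replicate comparison (5) no floor gave 1 and trend and robust moderation 11. Leaving out single arrays also moved the counts for both against IKKβ(EE), the averaged effect, both against control and the replicate comparison. The shares of all probe sets called without a floor, with trend and robust moderation or without 1 array are not given here. The interaction stayed at 0 in every fit run, the block included. For single genes, 641 values kept their side of the threshold, 143 lost the call and 43 gained it. This tally covers members and neighbouring genes called in the main fit, and members called only with the block. The latter gain the call under the block by construction, so the tally is no measure of robustness for them. A lone array left in a group was assumed to vary like the others. The dim genes ABCG1, MVD and SCD lie near log2 5, where RMA understates changes.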
